A study of Rattus norvegicus with 4 samples.

Results

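The genes described here encode the enzymes that oxidise, and attach soluble groups to, foreign and endogenous small molecules: cytochromes P450 (Cyp), glutathione S-transferases (Gst and the microsomal Mgst), UDP-glucuronosyltransferases (Ugt1, Ugt2) and sulfotransferases (Sult). They were chosen by symbol alone, from rat RefSeq symbols assigned to the array's probes through their accessions. Of 181 RefSeq symbols with these prefixes, 122 were measured, among 16579 measured genes in all. Of the 59 not measured, 26 are pseudogenes. The prefixes also take in P450 genes of sterol, steroid, bile acid and vitamin metabolism, such as Cyp51 and Cyp27a1, so the set is wider than drug and toxicant metabolism.

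All 4 arrays carried RNA from NR8383 cells, an alveolar macrophage line established from the lung lavage of a normal rat. The cells had spent 4 h with COOH-functionalized carbon nanotubes (the material NRCWE042), given at 6.8 cm2 of nanotube surface per cm2 of culture. The cells had been passaged 20 times, and the 4 samples are biological replicates per the labels. Unexposed cells were not analysed here, so no value here measures a response to the nanotubes. A single cell line stands for the alveolar macrophage in every sample.

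P450s insert oxygen into their substrates with electrons from NADPH-P450 reductase or, in mitochondria, from ferredoxin. The transferases then attach glutathione, glucuronic acid or sulfate, and transporters export the products. The liver holds the widest set of these enzymes. In many tissues planar aromatic compounds induce some of them through the Ah receptor, and electrophiles induce others through NRF2.

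Levels are log2 of the processed spot signal minus the 75th percentile of the same array, and a level of 0 is therefore the brightness that 25% of the probes exceed. A gene was called detected on an array if any probe for it carried the software's mark for a signal well above background there, on over 50% of that probe's spots. Levels of different genes come from different probes and give no order between genes. Over the 4 arrays, the 75th percentile of the probe signal lay between 49.0 and 131 units, lowest on replicate 4, and no sample spot was saturated. The lowest level marked well above background was -2.56, -2.41, -2.09 and -1.24 on replicates 1 to 4, so a weak gene was least likely to be called on replicate 4. Detection does not depend on the scaling, but the order of the arrays does. With levels scaled by the spike-in probes instead, 8 of the 23 genes described below as detected kept their highest array, and 21 were lowest on replicate 4. An area of low signal covered 2160 spots on replicate 3 and 1008 on replicate 4. It held probes of 9 and 5 of the enzyme genes on those arrays.

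All 10 macrophage markers checked were detected on the 4 arrays, among them Cd68, Lyz2 and Tyrobp. Their summed signal, in multiples of the 75th percentile, was between 1865 and 2001. Of 10 hepatocyte markers none was detected on all 4 arrays, and Alb, Ttr and Hnf4a were on no array. Fgb and Cps1 were each detected on 1. Their summed signal was between 0.708 and 1.46. Of 10 club and alveolar epithelial markers 1 was detected on all 4 arrays, the cilia gene Foxj1 (from 1 of 2 probes), and Krt18 on 1 array. Scgb1a1, Sftpc and Epcam were detected on none, and the summed signal was between 1.38 and 2.52.

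Most of the enzyme genes were not detected in the exposed cells. Of the 122 measured genes, 23 (18.9%) were detected on all 4 arrays, beside 44.4% of all measured genes. A further 8 were detected on 1 to 3 arrays (9.45% of all measured genes were), and 91 on none, where 46.1% of all measured genes fell. The 23 came from 12 of 13 gene classes: 9 of 70 P450 genes, 8 of 23 cytosolic and kappa-class glutathione transferase genes, all 3 microsomal glutathione transferase genes, 2 of 13 glucuronosyltransferase genes and 1 of 13 sulfotransferase genes. Where a gene was not detected, its transcript may still have been there below what its probes could register.

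**Figure D1:**
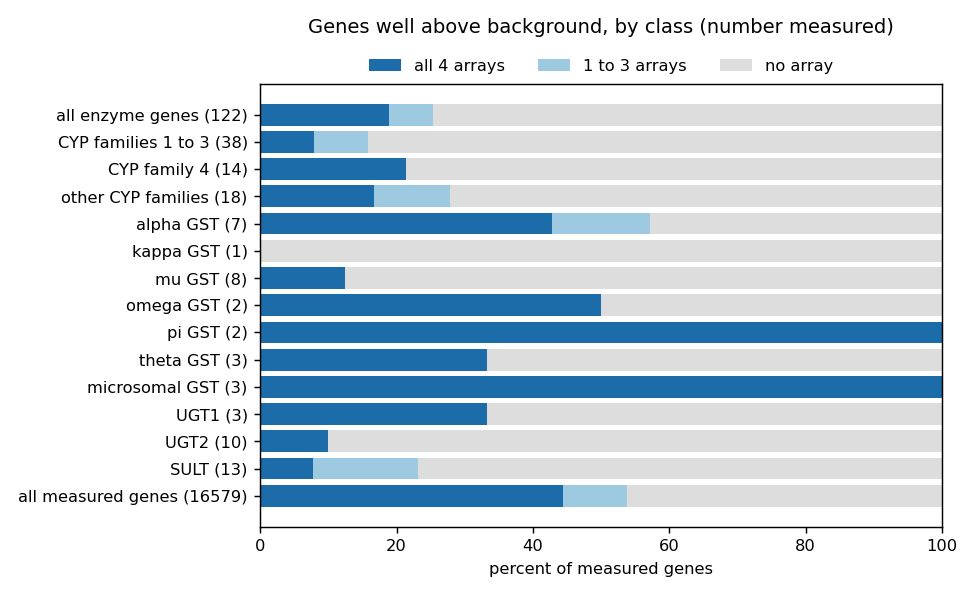
Percent of measured genes called well above background, split by the number of arrays (4, 1 to 3 or none), for each class of enzyme gene (number measured in brackets) and for all measured genes. The bar for the 122 enzyme genes reaches 18.9% on all 4 arrays, against 44.4% for all genes, and the microsomal and pi classes are the ones fully detected.

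P450s of families 1 to 3, which carry most drug and toxicant oxidation, were detected on all 4 arrays in 3 of 38 cases. The Ah receptor targets Cyp1a1, Cyp1a2 and Cyp1b1 were on no array. Neither were the 3 Cyp2a genes (Cyp2a1 among them), the 5 Cyp2b genes, the 5 Cyp3a genes (Cyp3a2 among them) or Cyp2e1, the ethanol-inducible P450. Of 8 Cyp2c genes only Cyp2c7 was called. Means over the 4 arrays of the 32 genes of these families on no array lay between -4.28 and -2.71.

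Cyp2d1 and Cyp2d5, members of the rat debrisoquine hydroxylase group, were detected on every array. Cyp2d1 read 3.72, 3.58, 4.43 and 4.57 on replicates 1 to 4 (mean 4.08 ± 0.50; SD, n = 4, as for every mean below). Cyp2d5 read 3.80, 3.66, 4.46 and 4.54 (4.11 ± 0.45). Both were higher on replicates 3 and 4 than on replicates 1 and 2, with no overlap, but lowest on replicate 4 with spike-in scaling. Their deviations from their own means differed by at most 0.07 on any array. They are neighbours on chromosome 7 and close paralogs, each with 1 probe, so these values may count shared transcripts and the call for either gene alone is uncertain. Cyp2d2, Cyp2d3 and Cyp2d4 were detected on no array.

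Cyp2c7, a female-predominant P450 of rat liver, rested on 1 of its 5 probes. That probe read 0.71, 0.66, 1.45 and 2.07 (1.22 ± 0.67), the largest SD of the 23 genes. Of its other probes, 3 were marked on 1 to 3 arrays and 1 on none, with means between -3.95 and -0.74. Those 3 were lowest on replicate 4, the brightest of them at -0.27, -0.23, -0.97 and -1.52. The unmarked probe was highest there, at -3.49. The gene was lost when every probe had to be detected. Its paralogs are close in sequence, and which Cyp2c transcript the bright probe read cannot be told from these files.

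In the arachidonate epoxygenase group, Cyp2j4 was detected on 3 arrays and Cyp2j3 on 2. Cyp2j4 read 0.27, 0.33, -2.29 and -0.68, with its low value on replicate 3. Cyp2j3 read -0.46, -1.02, -1.66 and -2.37. The probes of both lie in the low-signal area of replicate 3, and without replicate 3 Cyp2j4 counted as detected. Cyp2f4, which oxidises naphthalene in lung epithelium, was marked on 1 array, at levels between -4.87 and -1.92.

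Family 4 enzymes hydroxylate fatty acids and eicosanoids, and 3 of 14 genes were detected. Cyp4f6, whose relatives inactivate leukotriene B4, read 1.43, 0.86, 1.63 and 1.88 (1.45 ± 0.43), and both of its probes were called. Replicate 2 was the low one. Cyp4a8 read 3.26, 2.63, 2.43 and 2.94 (2.82 ± 0.36) from 1 of 3 probes, the other probes lying at -3.87 and -4.22. Cyp4b1, a lung-expressed member, read 0.94, 1.01, 0.69 and 1.16 (0.95 ± 0.20) from 1 of 2 probes. Cyp4f18, an enzyme of leukotriene B4 metabolism in mouse myeloid cells, was detected on no array. Neither were Cyp4v3 nor the peroxisome proliferator-inducible genes Cyp4a1, Cyp4a2 and Cyp4a3, nor Cyp4f1.

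Among the other P450 families, 3 of 18 genes were detected. Cyp51, the lanosterol demethylase of cholesterol synthesis, read 5.04, 5.25, 4.93 and 4.84 (5.02 ± 0.18), and its other probe was also called (3.86 ± 0.02). Cyp27a1, the mitochondrial sterol 27-hydroxylase that is prominent in human macrophages, read 2.44, 2.53, 2.72 and 2.94 (2.66 ± 0.22). Neither gene lay over 1 log2 unit from the other arrays on any array. Cyp20a1, a P450 with no settled substrate, read 3.15, 3.27, 2.25 and 2.42 (2.78 ± 0.51). It was lower on replicates 3 and 4 than on the others, with spike-in scaling and with normexp, a model-based background correction, too.

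Cyp27b1, the enzyme that activates vitamin D in macrophages among other cells, was marked on 3 arrays, at -1.93, -2.01, -1.33 and -1.63. These are values of the brighter of its 2 probes, and the other was marked on no array (-4.18 ± 0.47). The steroid 21-hydroxylase gene Cyp21a1 was also marked on 3 arrays, at -2.22, -1.74, -1.15 and -1.58. Both lacked the mark on replicate 4 and counted as detected without it. The steroidogenic genes Cyp11a1, Cyp11b1, Cyp11b2, Cyp11b3 and Cyp17a1, the aromatase gene Cyp19a1, the bile acid genes Cyp7a1 and Cyp8b1, the oxysterol hydroxylase gene Cyp7b1 and the vitamin D 24-hydroxylase gene Cyp24a1 were detected on no array.

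Glutathione transferases made up the bulk of the conjugating enzymes that were detected. Gstp1, the pi-class transferase, read 6.34, 6.31, 6.66 and 6.97 (6.57 ± 0.31), and its other probe gave 6.07 ± 0.25. Gsto1, the omega-class enzyme with dehydroascorbate reductase activity, read 6.23, 6.31, 6.34 and 6.33 (6.30 ± 0.05). On this scale Gstp1 was highest on replicate 4 and Gsto1 barely differed between arrays. With spike-in scaling Gstp1 was lowest on replicate 4 and the SD of Gsto1 was 0.53. Gstp3, the neighbour of Gstp1 on chromosome 1, read -0.35, -0.12, -0.16 and 0.35 (-0.07 ± 0.30). It has 1 probe, and whether that probe also reads Gstp1 transcripts was not tested, so its call is uncertain.

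In the alpha class, known for conjugating lipid peroxidation products, 3 of 7 genes were detected. Gsta1 read 6.32, 6.45, 6.29 and 6.18 (6.31 ± 0.11), and its other probe lay at 6.21 ± 0.21. Gsta5, which detoxifies aflatoxin epoxide in rat liver, read 1.01, 1.04, 1.07 and 1.07 (1.05 ± 0.03), the smallest SD of the 23. Gsta2 read 0.76, 0.84, 0.54 and 0.74 (0.72 ± 0.13). Each of these genes kept nearly the same level on all arrays on this scale, whereas with spike-in scaling their SDs were 0.66, 0.54 and 0.60 for Gsta1, Gsta5 and Gsta2. Alpha genes are close paralogs, so probes of 1 may read another. Gsta4, the transferase for 4-hydroxynonenal, was marked on 1 array, with levels between -2.63 and -1.29. Gsta3, Gsta4l1 and Gsta6 were on none.

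Of 8 mu-class genes only Gstm4 was detected, at 2.06, 1.80, 2.12 and 2.59 (2.14 ± 0.33). Gstm1 and Gstm2, major liver forms, were on no array, nor were Gstm3 and Gstm5. In the theta class 1 of 3 genes was called, Gstt2, at -0.88, -0.73, -0.68 and -0.31 (-0.65 ± 0.24), from 1 of 3 probes. Gstt1, Gstt4, Gsto2 and the mitochondrial Gstk1 were detected on no array.

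The microsomal enzymes protect membranes or, for Mgst2, can form leukotriene C4. Mgst1 read 6.22, 6.25, 6.10 and 5.89 (6.12 ± 0.16), and Mgst2 read 6.39, 6.49, 6.19 and 5.92 (6.25 ± 0.25). Mgst3 read 4.58, 4.56, 4.94 and 5.17 (4.81 ± 0.30). Mgst1 and Mgst2 had their lowest value on replicate 4 and Mgst3 its highest, although Mgst3 too was lowest there with spike-in scaling. Ltc4s, the dedicated leukotriene C4 synthase gene, was detected on no array.

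Ugt1a6, which glucuronidates small planar phenols, read 4.46, 4.55, 4.51 and 4.56 (4.52 ± 0.05). The call came from 1 of 2 probes, and the other lay at -2.23 ± 0.44 and was marked on no array. Genes of the Ugt1 locus share their later exons, so a probe there can read any of them. Of 10 spots of the bright probe, 1 lies in the low-signal area. Ugt1a8 and Ugt1a9 were detected on no array.

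Ugt2a1, known from olfactory epithelium, was detected at 0.65, 0.62, 1.10 and 1.85 (1.05 ± 0.57). It was highest on replicate 4, but the arrays differed by little with spike-in scaling (SD 0.03). All 8 measured Ugt2b genes (Ugt2b, Ugt2b1 and Ugt2b10 among them), which serve steroids and bile acids in liver, were on no array, as was Ugt2a3. Mean levels of these 9 Ugt2 genes over the arrays lay between -4.24 and -4.04.

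Sult1c2, a family 1 sulfotransferase, was the sulfotransferase detected on all 4 arrays. It read 6.39, 6.50, 6.29 and 5.87 (6.26 ± 0.27), and all 4 of its probes were called, the others at 5.41 ± 0.39, 4.46 ± 0.45 and 3.77 ± 0.39. Sult1b1, a thyroid hormone sulfotransferase, was marked on 3 arrays at -1.18, -1.44, -1.47 and -1.85, and Sult6b1 on 2. Sult1a1, Sult1c2a, Sult1c3, Sult1d1, the oestrogen sulfotransferase gene Sult1e1 and the hydroxysteroid sulfotransferase gene Sult2a1 were on no array.

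**Figure D2:**
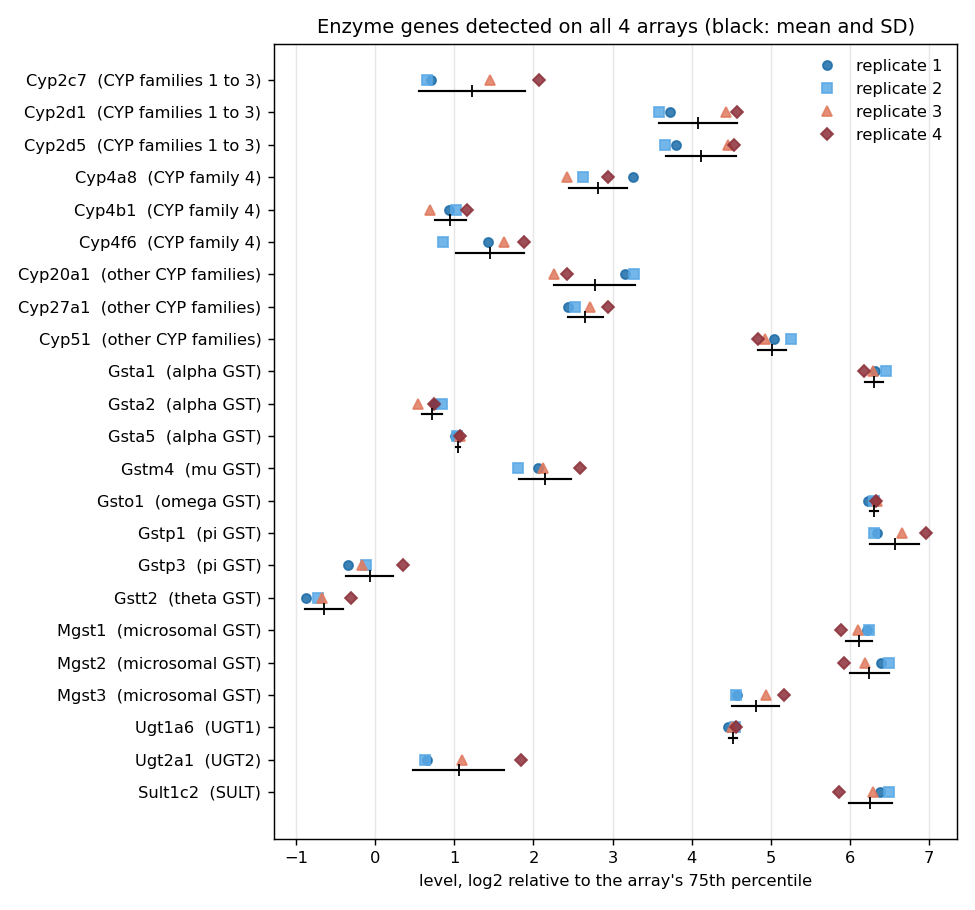
Level of each of the 23 enzyme genes detected on all 4 arrays (x axis, log2 units against the 75th percentile of the array), with 1 symbol per culture and a black bar for mean and SD. Gsta5, Gsto1 and Ugt1a6 have nearly coinciding symbols, and Cyp2c7, Ugt2a1 and Cyp20a1 the widest bars.

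How firmly a gene was called depended on its probes. Of the 23 detected genes 10 had several probes, and in 5 of these (Cyp2c7, Cyp4a8, Cyp4b1, Gstt2 and Ugt1a6) some probes were not detected on all arrays. Over all detected genes with several probes that share was 46.1%. The 5 genes with every probe called were Cyp4f6, Cyp51, Gsta1, Gstp1 and Sult1c2. Of the companion genes named below, Abcc1, Abcc4, Akr1b10, Arnt and Bach1 each had 1 of 2 probes detected on all 4 arrays.

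**Figure D3:**
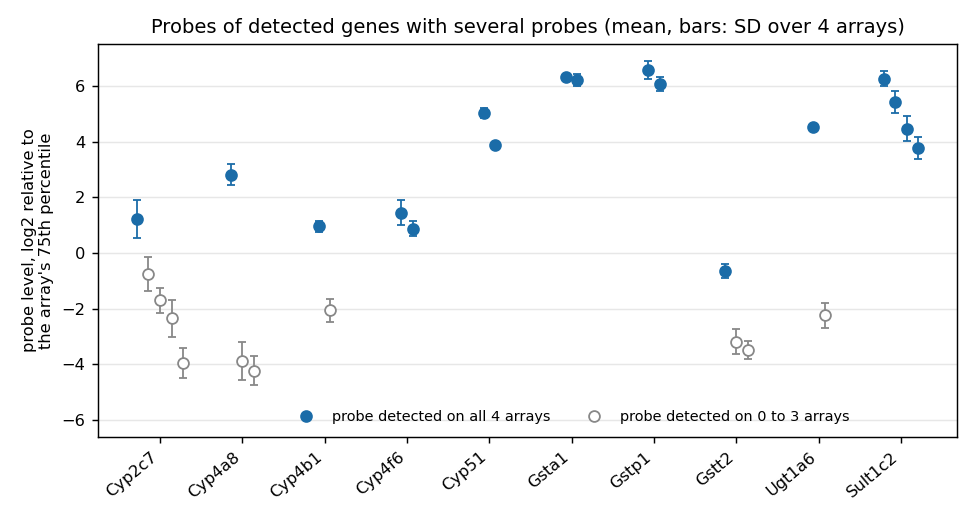
Mean level of each probe over the 4 arrays (y axis, log2 units against the 75th percentile of the array; bars, SD) for the 10 detected enzyme genes with several probes. Filled points mark probes detected on all 4 arrays and open points those detected on fewer. For Cyp2c7, Cyp4a8, Cyp4b1, Gstt2 and Ugt1a6 open points stand beside a filled one.

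Over the 23 detected genes together, the spread between cultures was near that of other genes, but it differed between classes. On this scale the median SD was 0.43 in the 9 detected P450 genes. It was 0.18 in the 8 detected cytosolic and kappa-class glutathione transferase genes. The median SD of the 23 detected genes was 0.27, beside 0.25 over all detected genes, and 3 of them (Cyp2c7, Ugt2a1 and Cyp20a1) exceeded 0.5, where 11.6% of all detected genes did. For the 5 genes whose probe had 10 spots per array, the SD between spots of the same array had a median of 0.06.

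On a single array, 2 of the 23, Cyp2c7 and Ugt2a1, lay more than 1 log2 unit away from the median of the remaining 3. The share was 8.88% over all detected genes. Both were high on replicate 4, but the 3 other Cyp2c7 probes marked on 1 to 3 arrays were lowest there. Both calls ended with spike-in scaling, where the SD was 0.17 for Cyp2c7 and 0.03 for Ugt2a1, and with normexp background correction. Before scaling, the processed signal of Ugt2a1 was 201, 201, 210 and 176 units on replicates 1 to 4. With levels scaled by the 75th percentile, the genes did not all move together across the arrays. On replicate 4, 17 of the 23 (73.9%) lay above their own mean, beside 59.6% of all detected genes. Above their own mean on replicates 3 and 4 and below it on replicates 1 and 2 were 9 genes (Cyp2c7, Cyp2d1, Cyp2d5, Cyp4f6, Cyp27a1, Gsta5, Gstp1, Mgst3 and Ugt2a1), and 44.9% of all detected genes did the same. The reverse held for 5 genes (Cyp20a1, Cyp51, Gsta1, Mgst1 and Mgst2), as for 23.8% of all detected genes. The other 9 followed neither pattern. With spike-in scaling the first pattern held for 2 genes (0.896% of all detected genes) and the reverse for 12 (39.8%). The median deviation of the 23 was -0.06, -0.05, -0.01 and 0.21 on replicates 1 to 4, beside -0.07, -0.07, 0.06 and 0.10 over all detected genes. The 75th percentile of probe signal was lowest on the array where this deviation was highest, at 128, 131, 98.5 and 49.0 on these arrays; its part in the deviations was not tested.

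**Figure D4:**
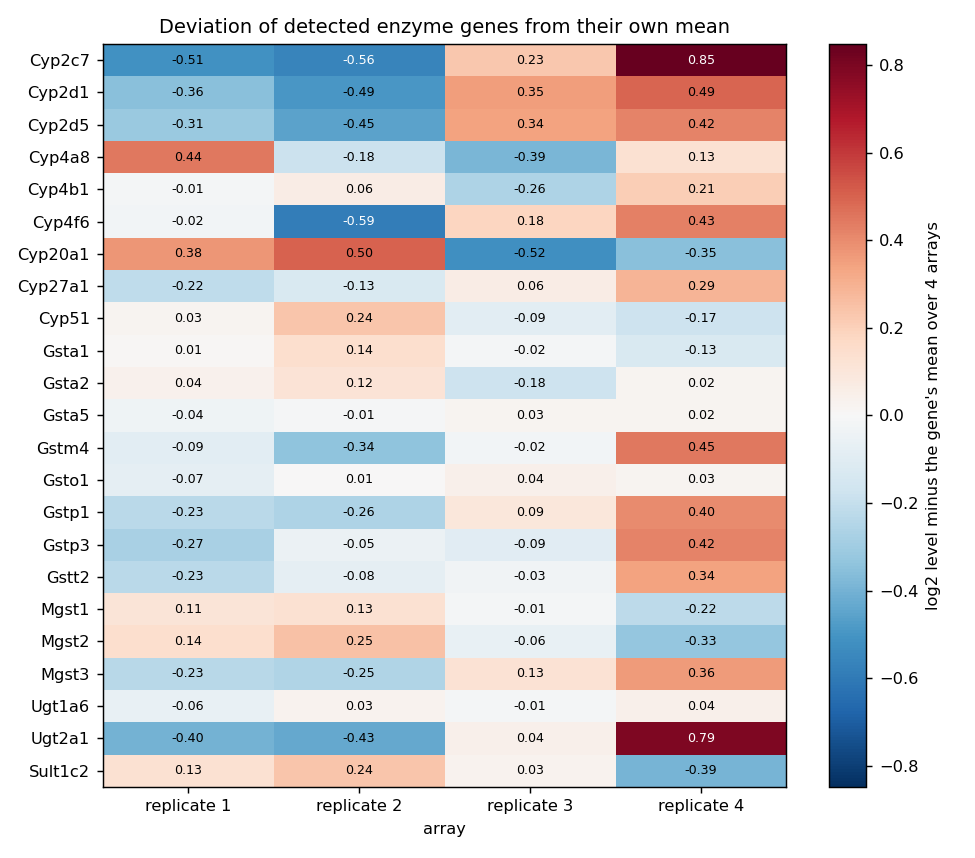
Level of each detected enzyme gene on each array minus its own mean over the 4 arrays (colour and printed value, log2 units; rows, genes; columns, cultures). Cyp2c7 (0.85) and Ugt2a1 (0.79) stand out on replicate 4, and Cyp20a1 and Sult1c2 run the other way. The first pair no longer stands out with spike-in scaling.

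The regulators of these enzymes were partly detected. Of 23 measured receptors and regulators, 12 (52.2%) were called on all 4 arrays and 4 on 1 to 3. Ahr, the receptor for planar aromatic compounds, was marked on no array (-3.03 ± 0.76), nor was its repressor gene Ahrr, whereas its partner gene Arnt lay at -0.91 ± 0.12. Of the xenobiotic nuclear receptors, Nr1i2 (PXR) was marked on 2 arrays and Nr1i3 (CAR) on none. Nfe2l2, which encodes NRF2, lay at 4.62 ± 0.09 and its inhibitor gene Keap1 at 0.57 ± 0.20. Hsp90ab1, a chaperone gene, lay at 8.31 ± 0.13, Maff at 3.29 ± 0.44, and Bach1, a repressor at NRF2 target sites, at -0.26 ± 0.14. Esr1, Hnf4a and Ppara were detected on no array. Mafk was marked on 3, at -0.68, -0.42, -2.66 and 0.03, and its probe lies in the low-signal area of replicate 3.

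Genes of electron supply were detected for both microsomal and mitochondrial P450s. Of 12 genes for redox partners and haem supply, 11 were detected. Por, the reductase of microsomal P450s, lay at 3.12 ± 0.37, Cyb5a at 5.68 ± 0.34, Cyb5b at -1.41 ± 0.45 and Cyb5r3 at 3.59 ± 0.31. The mitochondrial partners Fdx1 and Fdxr lay at 5.20 ± 0.21 and 3.02 ± 0.48. Alas1, the first enzyme of haem synthesis, lay at 6.81 ± 0.39, and its erythroid form Alas2 was the gene not detected.

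Cofactor supply was also mostly detected, in 9 of 12 measured genes. Gclc, the catalytic subunit for glutathione synthesis, lay at 3.80 ± 0.20, Gsr at 3.06 ± 0.37 and Gss at 3.17 ± 0.24. Bpnt1, Mat2a and Mat2b lay at 3.83 ± 0.09, 1.29 ± 0.04 and 3.74 ± 0.26. Gclm was on no array. Papss2, which makes the sulfate donor, and Slc35d1, which carries UDP-glucuronic acid into the endoplasmic reticulum, were each marked on 3 arrays.

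Of 36 other oxidising, reducing and hydrolysing enzymes, 18 (50.0%) were detected. Among them were Adh5, glutathione-dependent formaldehyde dehydrogenase (5.12 ± 0.09), and the aldo-keto reductase genes Akr1a1 (7.31 ± 0.19), Akr1b1 (2.73 ± 0.26), Akr1b8 (8.60 ± 0.03), Akr1b10 (0.20 ± 0.45) and Akr7a2 (4.76 ± 0.54). Genes on no array included Adh1c, Adh4, Adh7, Akr1c14, Aldh1a1 and Aldh1a2, and also all 5 flavin monooxygenase genes, Fmo1 to Fmo5.

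Of 16 other conjugating enzymes and partners, 6 were detected, among them the leukotriene synthesis partner gene Alox5ap (0.13 ± 0.09), As3mt, which methylates arsenic (0.31 ± 0.19), Gstz1 (1.81 ± 0.26), Nat1 (0.96 ± 0.45) and Nnmt (-0.18 ± 0.43). Genes on no array included Ggt1, Ggt5, Glyat, Hnmt, Hpgds and Inmt. Of 20 transporters, 5 (25.0%) were detected. These were Abcb4 (0.35 ± 0.14), the glutathione conjugate exporter gene Abcc1 (1.88 ± 0.29), Abcc4 (1.38 ± 0.12), Abcc5 (4.09 ± 0.15) and Slc47a1 (1.56 ± 0.14). Abcb1a, Abcb11, Abcc10 and Abcc3 were on no array, Abcb1b was marked on 1 and Abcc2 on 3. Over the companion lists together, 61 of 119 measured genes (51.3%) were detected, beside 18.9% of the enzyme genes and 44.4% of all measured genes.

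The promoters of the enzyme genes were compared by CpG content, because most broadly expressed genes of mammals start in CpG-rich DNA. RefSeq promoter sequences (GRCr8, 250 bases before and 50 after the start) were found by symbol for 20 of the 23 detected and 73 of the 91 undetected genes. The other 3 detected genes are Gstt2, Mgst2 and Ugt2a1. CpG content is given as the observed number of CpG dinucleotides over that expected from the C and G of the same sequence. It had a median of 0.36 in the detected enzyme genes, beside 0.79 over all detected genes with a promoter, and of 0.19 in the undetected enzyme genes, beside 0.34 over all undetected genes. A ratio above 0.6 was reached by 4 of the 20 (20.0%), whereas 75.5% of all detected genes reached it. Members of a cluster share descent, so these promoters are not independent of each other.

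Promoters across this range are shown 5' to 3' on the gene's strand, with each CpG in capitals; they were chosen after their values were seen. Cyp20a1 (chr9:69249623-69249922, plus strand; 26 CpGs, ratio 0.84) and Gstp1 (chr1:210769656-210769955, minus strand; 15 CpGs, ratio 0.597) are detected genes with many CpGs. The Gstp1 ratio lies just under 0.6, so Gstp1 is not among the 4 above it. Sult1c2 (chr9:7436731-7437030, plus strand; 1 CpG, ratio 0.08) is a detected gene with a CpG-poor promoter. Cyp2c11 (chr1:246174966-246175265, plus strand; 0 CpGs), the male-specific P450 of rat liver, was detected on no array.
Cyp20a1: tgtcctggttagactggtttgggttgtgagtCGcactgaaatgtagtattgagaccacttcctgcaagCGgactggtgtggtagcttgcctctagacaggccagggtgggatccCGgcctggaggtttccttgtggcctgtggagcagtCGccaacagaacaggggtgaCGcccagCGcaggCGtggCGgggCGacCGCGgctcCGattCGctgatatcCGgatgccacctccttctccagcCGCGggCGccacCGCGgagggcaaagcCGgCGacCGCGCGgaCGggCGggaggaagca
Gstp1: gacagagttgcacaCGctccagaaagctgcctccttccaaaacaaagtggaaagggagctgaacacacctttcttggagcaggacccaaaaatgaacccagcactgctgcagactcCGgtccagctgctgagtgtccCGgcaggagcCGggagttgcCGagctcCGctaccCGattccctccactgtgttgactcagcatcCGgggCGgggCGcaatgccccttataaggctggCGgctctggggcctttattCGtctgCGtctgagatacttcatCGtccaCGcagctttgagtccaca
Sult1c2: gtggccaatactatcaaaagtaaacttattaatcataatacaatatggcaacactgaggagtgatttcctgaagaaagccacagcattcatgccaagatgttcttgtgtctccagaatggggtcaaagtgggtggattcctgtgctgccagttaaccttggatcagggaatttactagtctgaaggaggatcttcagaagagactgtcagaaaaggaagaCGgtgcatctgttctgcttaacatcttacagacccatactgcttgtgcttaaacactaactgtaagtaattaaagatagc
Cyp2c11: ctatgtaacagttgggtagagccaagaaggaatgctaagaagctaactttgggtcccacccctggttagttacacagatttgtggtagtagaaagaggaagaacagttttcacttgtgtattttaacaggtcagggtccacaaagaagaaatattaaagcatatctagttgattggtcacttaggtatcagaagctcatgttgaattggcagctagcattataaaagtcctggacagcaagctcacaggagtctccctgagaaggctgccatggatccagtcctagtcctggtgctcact

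Capitals recur along Cyp20a1 and Gstp1, whereas Sult1c2, detected with all 4 of its probes, has a single pair and Cyp2c11 none. Among detected genes the ratio also ran to 0 in Cyp2c7 and was 0.77 in Cyp51 and 0.79 in Mgst3. Among undetected genes it was 0.70 in Cyp1b1, 0.71 in Gstk1 and 0.84 in Gsto2. It reached 0.89 in Cyp26a1, also undetected, the highest ratio among the enzyme genes with a promoter.

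**Figure D5:**
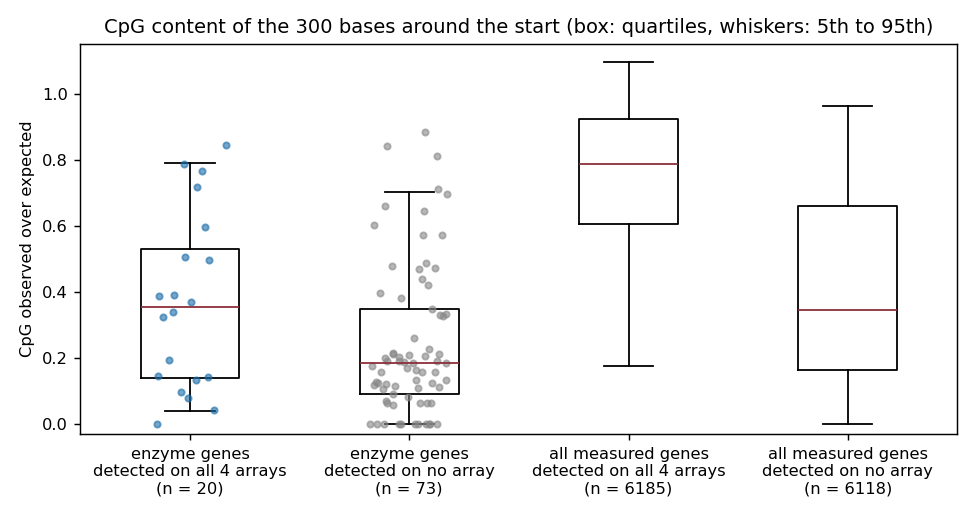
CpG observed over expected in the 300 bases around the start for detected and undetected enzyme genes (points are single genes) and for all measured genes (boxes, quartiles with the median; whiskers, 5th to 95th percentile). The detected enzyme genes centre on 0.36 and all detected genes on 0.79.

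The letters TGACNNNGC, the core that NRF2 and small Maf proteins bind, were found on either strand in 4 of the 20 promoters of detected enzyme genes (20.0%), beside 6 of 73 undetected ones (8.22%) and 12.2% of all 27457 promoters. Over all measured genes with a promoter the share was 15.1% in detected and 11.5% in undetected ones. The 4 were Cyp4b1, Gsta1, Gsta2 and Gstp1. The Gsta1 and Gsta2 matches lay after the start, at positions 31 and 37, and the Cyp4b1 match at -22. In Gstp1 the match began 61 bases before the start. AP-1 and NRF2 are both known to act on the rat Gstp1 gene, but whether either acts at this match was not tested. The match is shown here in capitals with its flanks (chr1:210769748-210769776, minus strand).
Gstp1 match: tccactgtgtTGACTCAGCatccggggcg

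The letters GCGTG, the core of the Ah receptor element, were in 9 of the 20 detected promoters (45.0%), beside 51.2% of all detected genes, and in 16 of 73 undetected ones (21.9%), beside 28.2% of all undetected genes. The TATA sequence TATAAA was in 4 of the 20 (20.0%), beside 6.98% of all detected genes, and in 24 of the 73 (32.9%), beside 17.6% of all undetected genes. Over all promoters the shares were 31.1% for GCGTG and 14.3% for TATAAA. Both strands were searched, and GCGTG itself holds a CpG. These matches describe the sequences and are no evidence of binding.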

How the data were processed

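Gene expression was measured on 4 one-colour Agilent arrays of 1 slide and 1 scan. The authors deposited linear spot intensities read by Agilent Feature Extraction 11.0.1.1. Per the file headers, the software removed background and a spatial trend on each array, with no normalization between arrays. The deposited raw spot and background medians, also intensities, served an alternative correction only. The processed signal was turned to log2 after outlier spots had been left out, spots of a probe were averaged and the 75th percentile over sample probes was subtracted. Of 45598 probes, 21109 were named through accessions in a RefSeq table (GRCr8); the headers name an older build. A gene took its brightest probe. Areas of low signal were blocks of 12 by 12 spots, with at least 10 detected, whose median lay over 0.5 log2 units below the other arrays.

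The members and lists were chosen with earlier results of these data known. All detected and partly detected genes were named; undetected ones were the first 4 of each class alphabetically and 10 well-known genes, and companion genes up to 6 detected and 6 not detected per list with 9 well-known ones. A few companion genes that this rule names are not reported here. Other undetected genes were named for their known roles after their values were seen. With 1 group no test between groups was made. Dixon's test looked for single arrays far from the others, and the number of arrays limits the precision. The steps were tested on simulated data. Python 3.11.15, numpy 2.4.6, pandas 2.3.3, R 4.3.3 and limma 3.58.1 were used.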

Additional observations from a re-analysis of the deposited data

Results flagged for a closer look

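Dixon's test for a sample far from the others, applied to the 23 enzyme genes and 61 companion genes detected on all 4 arrays, marked 0 of the 23 and 2 of the 61. Chance marks about 1 gene in 20. Bach1 was low on replicate 1, at -0.48 against -0.19, -0.17 and -0.21 on replicates 2 to 4. Adh5 was high on replicate 4, at 5.27 against 5.08, 5.07 and 5.08 on replicates 1 to 3. The probe of Adh5 lies in the low-signal area of replicate 3. With spike-in scaling both genes were lowest on replicate 4, and neither passed Dixon's critical value. With normexp Adh5 was low on replicate 4, at 4.10 against 4.39, 4.42 and 4.42 on replicates 1 to 3. It passed the critical value there too, but in the opposite direction. The 0 of the 23 also depended on the processing. With normexp Mgst1 (low on replicate 4), Mgst3 (high on replicate 3) and Ugt2a1 (high on replicate 4) passed the critical value. With spike-in scaling Gstp1 and Mgst3 passed it, both low on replicate 4. Cyp4b1 passed it, low on replicate 3, when the percentile was taken over detected probes only.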

How the results depend on the processing

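The count of detected enzyme genes was 18 to 27 under other rules for arrays, probes, outlier spots and low-signal areas, and 23 to 26 when a replicate was left out. The looser mark, for a positive and significant signal, gave 38 of the 122 enzyme genes. Over all measured genes the share with that mark was 55.4%. All 23 genes were kept under these settings, except that requiring every probe lost 5. The count of genes over 1 log2 unit from the other arrays was 10 under the looser mark, 11 with spike-in scaling, 1 with every probe required, and 0 to 2 when a replicate was left out, 0 without replicate 4. The 11 with spike-in scaling were Cyp20a1, Cyp4a8, Cyp51, Gsta1, Gsta2, Gsta5, Gsto1, Mgst1, Mgst2, Sult1c2 and Ugt1a6, without Cyp2c7 and Ugt2a1. With normexp the 2 such genes were Cyp20a1 and Sult1c2, and with the median over probes Cyp4a8 and Ugt2a1. Spike-in scaling moved the median deviation to 0.30, 0.38 and -0.57 on replicates 1, 2 and 4, beside 0.30, 0.36 and -0.68 over all detected genes, and normexp moved it to -0.12 on replicate 4, beside -0.13. Normexp moved 20 of the 23 mean levels by more than their SD, Gstp1 to 5.75 and Cyp2d1 to 3.34, and the median over probes moved 7. The median SD was 0.51 with spike-in scaling, beside 0.50 over all detected genes, and 0.17 without replicate 4. The cause was not tested. Naming genes by the files' own symbols was not run, since the files used here hold no symbol column. No paired analysis was possible because there is 1 group. Signal over background limits weak genes most on replicate 4.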
